A study of Mus musculus with 8 samples.

Results

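The cytochrome P450 genes of families 1 to 4 were examined in the duodenum of Zeb2+/- mice and of WT mice (Zeb2+/+). Members were taken by name and biotype alone, as the protein-coding genes whose symbol is Cyp, a family number from 1 to 4, a subfamily letter and a gene number, and this gave 75 of the 54532 genes in the authors' table. Family 1 had 3 members, family 2 had 48, family 3 had 7 and family 4 had 17. Polyadenylated RNA was sequenced from 4 Zeb2+/- and 4 WT duodenum samples. The Zeb2+/- mice carried a global heterozygous knockout, so every cell type of the sample had the same genotype, and the study used them as a model of the growth retardation of Mowat-Wilson syndrome. The labels give neither strain, age or treatment nor the animal behind each library, so p-values measure only the spread between these samples, which may in part be technical.

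Cytochrome P450 enzymes are haem proteins, most of them anchored in the endoplasmic reticulum, that insert an oxygen atom into lipophilic substrates with electrons passed on by P450 oxidoreductase. Families 1 to 3 are known above all for the oxidation of drugs, plant compounds and steroids, with much overlap in substrates, whereas family 4 hydroxylates the ends of fatty acids and of eicosanoids. In the small intestine these enzymes sit mainly in the absorptive cells of the villus, where they act on swallowed compounds before these reach the liver. Many members arose by local gene duplication and lie side by side in clusters, and nuclear receptors and the aryl hydrocarbon receptor (AHR) switch on several of them.

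Zeb2 itself, the targeted gene on chromosome 2, had 0.488, 0.173, 0.197 and 0.344 FPKM in Zeb2+/- libraries 1 to 4, against 0.991, 0.7602, 1.19 and 0.8287 FPKM in WT libraries 1 to 4. FPKM are fragments scaled by gene length and by library size. The genotypes did not overlap, and the Zeb2+/- mean was 31.9% of the WT mean (exact two-sided permutation test, p = 0.0286, the smallest that 4 against 4 samples allow). That p is for Zeb2 alone and is not adjusted. In a limma fit of all 27850 genes above 0, Zeb2 had a log2 fold change of FPKM + 1 of -0.58 (SE 0.12, adjusted p = 0.0772). The libraries held 13579347 to 17137417 reads in genes, and a single read on 1 kilobase of gene added 0.0538 to 0.0885 FPKM. Among all genes tested, 395 of 12190 passed an adjusted p of 0.05 in limma, 57 higher (0.468%) and 338 lower (2.77%) in Zeb2+/-.

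The duodenum expressed a limited part of the P450 repertoire at high levels. Of the 75 genes, 27 had a mean of at least 1 FPKM over the 8 libraries and entered the genotype test, 33 were detected at a lower mean, and 15 had no read in any library. The tested genes were 1 of the 3 members of family 1, 15 of the 48 of family 2, 3 of the 7 of family 3 and 8 of the 17 of family 4. Only 9 genes reached a mean of 100 FPKM, and these held 83.9 to 88.6% of the members' summed FPKM in each library. All 75 together took 0.989 ± 0.245% of the reads in genes in Zeb2+/- libraries, and 1.12 ± 0.161% in WT libraries (SD, n = 4 each). Between genotypes, 0 of the 27 tested members passed the adjusted threshold in limma, where 3.24% of all genes tested did. At an unadjusted p under 0.05 there were 4, which is 3 higher (Cyp1a1, Cyp2u1, Cyp4f16) and 1 lower (Cyp2c29) in Zeb2+/-, against 18.9% of all genes tested (8.91% as lower, the rest as higher). In limma voom on reads rebuilt from the FPKM, 0 members passed, where 1.66% of all genes did, and 4 had an unadjusted p under 0.05, where 2070 of the 12190 genes had one.

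Promoter sequence is shown for 5 members around which the results turn. Cyp1a1, Cyp4f16 and Cyp2c29 had some of the smallest p-values among the members, and Cyp3a25 and Cyp3a59 are neighbours with near-identical promoters and very different levels. The windows run from 250 bases before to 50 after the RefSeq gene start on GRCm38.p6, 5′ to 3′ on the gene's own strand. Capitals mark letters searched on both strands: AGGTCA, the half-site of many nuclear receptors, GCGTG, the core of the AHR response element, and TATAAA, the TATA box, which do not overlap in these 5 windows. On the other strand the half-site reads TGACCT and the AHR core CACGC.
Cyp1a1, chr9:57697363-57697662, plus strand: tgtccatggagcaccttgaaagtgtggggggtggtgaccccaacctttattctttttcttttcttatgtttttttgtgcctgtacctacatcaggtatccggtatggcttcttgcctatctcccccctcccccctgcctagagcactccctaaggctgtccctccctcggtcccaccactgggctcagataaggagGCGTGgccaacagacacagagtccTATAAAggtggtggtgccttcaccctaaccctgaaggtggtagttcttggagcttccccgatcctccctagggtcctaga
Cyp4f16, chr17:32536307-32536606, plus strand: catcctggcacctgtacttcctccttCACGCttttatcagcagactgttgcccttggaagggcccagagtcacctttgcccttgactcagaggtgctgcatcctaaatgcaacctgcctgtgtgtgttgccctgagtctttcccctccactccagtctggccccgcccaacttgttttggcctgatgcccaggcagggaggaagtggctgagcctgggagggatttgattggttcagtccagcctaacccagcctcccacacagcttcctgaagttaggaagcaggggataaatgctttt
Cyp2c29, chr19:39286835-39287134, plus strand: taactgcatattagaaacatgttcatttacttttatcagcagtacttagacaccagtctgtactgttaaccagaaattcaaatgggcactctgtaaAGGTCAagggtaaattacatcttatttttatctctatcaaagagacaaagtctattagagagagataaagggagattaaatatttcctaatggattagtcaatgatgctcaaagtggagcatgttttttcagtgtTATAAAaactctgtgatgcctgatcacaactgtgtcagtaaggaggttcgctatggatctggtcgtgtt
Cyp3a25, chr5:146009569-146009868, minus strand: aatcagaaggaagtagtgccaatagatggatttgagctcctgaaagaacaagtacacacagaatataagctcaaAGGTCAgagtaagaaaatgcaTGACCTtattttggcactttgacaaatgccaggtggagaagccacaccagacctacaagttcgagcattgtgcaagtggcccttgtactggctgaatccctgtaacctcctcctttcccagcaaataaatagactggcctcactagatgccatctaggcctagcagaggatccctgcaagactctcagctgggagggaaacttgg
Cyp3a59, chr5:146079008-146079307, plus strand: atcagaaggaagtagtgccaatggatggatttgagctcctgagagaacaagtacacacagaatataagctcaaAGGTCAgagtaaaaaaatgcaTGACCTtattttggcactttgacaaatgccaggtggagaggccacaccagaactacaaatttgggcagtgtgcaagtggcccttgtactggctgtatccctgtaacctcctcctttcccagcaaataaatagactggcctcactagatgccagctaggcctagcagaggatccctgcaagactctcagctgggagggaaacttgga

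The Cyp1a1 window holds the AHR core at position -54 and a TATA box at -30, counted from the gene start. The windows of Cyp1a1 and Cyp2c29 lie 9685 and 17680 bases from the gene starts of the deposited annotation, which includes longer transcripts for both. Windows were found for 62 members, 23 of them tested. GCGTG stood in 6 of those 23, against 32.4% of 32851 RefSeq promoter windows of the same length, and AGGTCA stood in 3 of 23, against 16.3%. TATAAA stood in 9 of 23, against 13.6%, and GTTAAT, a half-site of hepatocyte nuclear factor 1, in 2 of 23 (Cyp2c68 and Cyp2d26), against 7.10%. In the 39 untested members with a window, GCGTG stood in 6, AGGTCA in 15, TATAAA in 18 and GTTAAT in 5. So the high share of TATAAA was not particular to the tested members. These are matches of letters only, and some TATAAA lie far from the start, as at -234 in Cyp3a11.

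Family 3 comprises the enzymes related to human CYP3A4, which oxidizes a large share of drugs in use, and it contributed the most abundant member. Cyp3a13, on chromosome 5 at 137892932 to 137921619, had 405, 948, 1449 and 918 FPKM in Zeb2+/- libraries 1 to 4, against 869.8, 822, 1264 and 995 FPKM in WT libraries 1 to 4. Zeb2+/- library 1 was the lowest of the 8 and Zeb2+/- library 3 the highest, so the Zeb2+/- range enclosed the WT range. Cyp3a13 overlaps the pseudogene Gm15502 on the same strand by 208 bases, and that pseudogene averaged 71.7 FPKM. Cyp3a11, the main Cyp3a of mouse liver and a textbook target of the pregnane X receptor, had 133, 239.7, 506 and 322 FPKM in Zeb2+/- libraries, against 334, 281, 719 and 503 FPKM in WT libraries. Its Zeb2+/- libraries 1 and 2 lay below every WT library, and the other Zeb2+/- libraries lay inside the WT range. The log2 fold change of FPKM + 1 was -0.67 (SE 0.43, adjusted p = 0.447, limma), or -0.34 without Zeb2+/- library 1.

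Cyp3a25 had 166, 288, 478 and 277 FPKM in Zeb2+/- libraries, against 297, 283, 419.9 and 346 FPKM in WT libraries, and the genotypes overlapped. Its neighbour Cyp3a59, on the opposite strand, averaged 0.650 FPKM over the 8 libraries where Cyp3a25 averaged 319 FPKM, although the printed promoter windows are 95.7% identical and both hold AGGTCA on each strand. These FPKM values are per length, so the levels differ 491-fold between the genes. Cyp3a59 shares 26.8% of its transcript stretches of 50 bases with Cyp3a25, and 7.39% of those of 100 bases, and the treatment of reads that match both genes in the authors' counting is not stated in the labels. Summed over the 7 members, family 3 stood at 705, 1477, 2434 and 1517 FPKM in Zeb2+/- libraries 1 to 4, against 1502, 1388, 2405 and 1844 FPKM in WT libraries 1 to 4. It made up 35.6 ± 2.805% of the members' summed FPKM in Zeb2+/- libraries and 39.04 ± 2.12% in WT libraries (SD, n = 4 each), a description without a test.

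**Figure D1:**
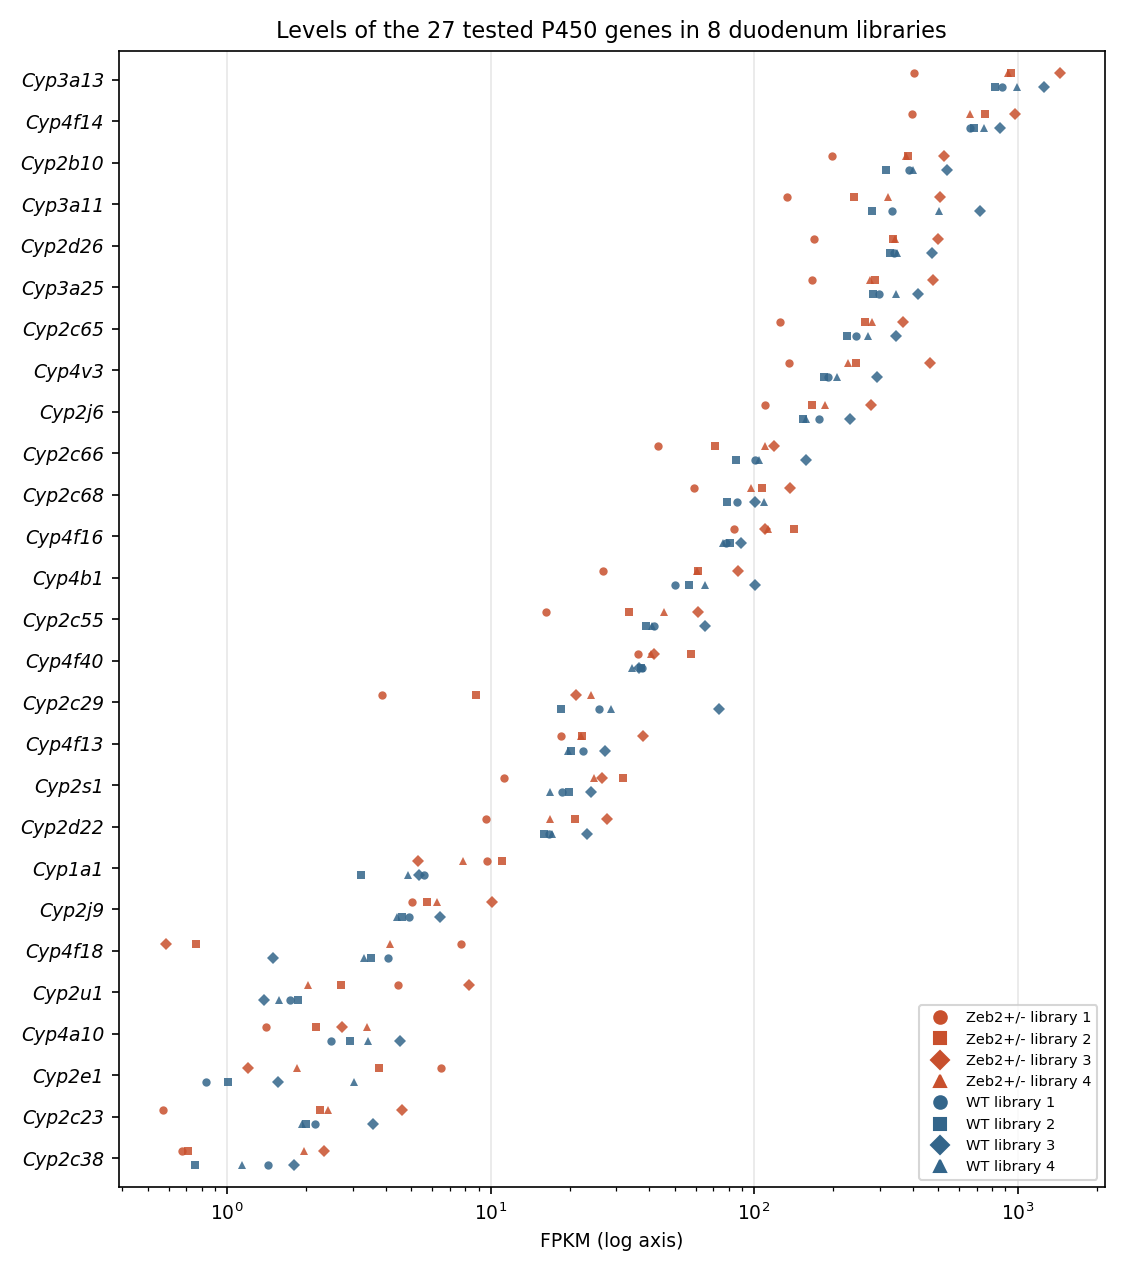
FPKM on a log axis of the 27 tested P450 genes, ordered by mean, with each library as 1 point, Zeb2+/- in orange above WT in blue and the shape giving the library number. On this FPKM scale, Zeb2+/- library 1 (orange circles) is the lowest of the 8 libraries for 20 of the 27 genes. For Cyp2u1 alone on this scale, the 4 Zeb2+/- points all lie on one side of the WT points.

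Family 2 is the largest and most varied of the 4 families, with drug oxidation (Cyp2b, Cyp2d), arachidonate oxidation (Cyp2c, Cyp2j) and several single genes of narrower expression. Cyp2b10, the classic target of the constitutive androstane receptor in mouse liver, had 198, 385, 528 and 376 FPKM in Zeb2+/- libraries, against 386, 316, 541 and 399 FPKM in WT libraries. Apart from Zeb2+/- library 1, the lowest of all, the Zeb2+/- libraries lay within the WT range. The other 4 Cyp2b genes were at 0 in every library. Cyp2d26 had 168, 337, 499 and 343 FPKM in Zeb2+/- libraries, against 339, 329, 473 and 349.8 FPKM in WT libraries, and again the genotypes overlapped. Of the 8 Cyp2d genes, only Cyp2d26 and Cyp2d22 reached 1 FPKM. Cyp2d22 averaged 18.8 ± 7.59 FPKM in Zeb2+/- and 18.2 ± 3.32 FPKM in WT libraries (SD, n = 4 each).

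The Cyp2c genes, whose products epoxidize arachidonate and oxidize drugs, formed the largest cluster, with 14 genes over 1180 kilobases of chromosome 19 and a fifteenth, Cyp2c23, farther along. Cyp2c65 had 126, 263, 366 and 279.7 FPKM in Zeb2+/- libraries, against 244, 226, 346 and 269.8 FPKM in WT libraries. Cyp2c66, its neighbour, had 43.3, 71.1, 119 and 110.5 FPKM in Zeb2+/- libraries, against 101, 85.6, 157 and 105 FPKM in WT libraries. In both genes Zeb2+/- library 1 was the lowest of the 8, and the genotypes overlapped. Of the stretches of 100 bases, 7.82% of those of Cyp2c65 occur in Cyp2c66, and 7.35% of those of Cyp2c66 in Cyp2c65. The treatment of reads that match both is not stated, so the 2 levels may not be independent. Cyp2c68 had 59.3, 107, 137 and 97.6 FPKM in Zeb2+/- libraries, against 86.3, 78.7, 101 and 109 FPKM in WT libraries, and 19.8% of its transcript stretches of 100 bases also occur in other genes, most of them in Cyp2c40, so its level is uncertain.

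Cyp2c29, whose liver form is induced through the constitutive androstane receptor, had the most negative fold change of the members. It lies at 39269405 to 39330713 on chromosome 19 and had 3.88, 8.82, 21.004 and 24.1 FPKM in Zeb2+/- libraries 1 to 4, against 25.8, 18.5, 73.5 and 28.6 FPKM in WT libraries 1 to 4. Zeb2+/- libraries 1 and 2 lay below every WT library, Zeb2+/- libraries 3 and 4 lay inside the WT range, and WT library 3 stood far above the other WT libraries. The means were 14.5 ± 9.65 FPKM in Zeb2+/- and 36.6 ± 24.98 FPKM in WT libraries (SD, n = 4 each). The log2 fold change was -1.36 (SE 0.58, adjusted p = 0.253, limma), with a 95% interval from -2.68 to -0.04. It was -0.90 without Zeb2+/- library 1 (adjusted p = 0.367, limma). Among the other tested Cyp2c genes, Cyp2c55 averaged 39.1 ± 18.9 FPKM in Zeb2+/- and 46.7 ± 12.3 FPKM in WT libraries (SD, n = 4 each), Cyp2c23 averaged 2.47 ± 1.66 FPKM in Zeb2+/- and 2.41 ± 0.789 FPKM in WT libraries (SD, n = 4 each) and Cyp2c38 averaged 1.42 ± 0.853 FPKM in Zeb2+/- and 1.28 ± 0.439 FPKM in WT libraries (SD, n = 4 each). None of these 3 passed the test, and their genotypes overlapped.

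Cyp2j enzymes make epoxides of arachidonate, and 2 of the 8 mouse genes were expressed above 1 FPKM. Cyp2j6 had 110.2, 166, 277 and 187 FPKM in Zeb2+/- libraries, against 176, 153, 231 and 158 FPKM in WT libraries, and its log2 fold change of -0.01 was the closest to 0 among the members (SE 0.28, adjusted p = 0.986, limma). Cyp2j9 averaged 6.78 ± 2.27 FPKM in Zeb2+/- and 5.08 ± 0.911 FPKM in WT libraries (SD, n = 4 each). Cyp2s1, an epithelial P450 that the AHR can induce, had 11.2, 31.7, 26.4 and 24.6 FPKM in Zeb2+/- libraries, against 18.6, 19.8, 24.1 and 16.8 FPKM in WT libraries. For Cyp2s1, Zeb2+/- library 1 was again the lowest of the 8, while the other Zeb2+/- libraries all lay above every WT library.

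Cyp2u1 is a fatty acid hydroxylase whose human counterpart is mutated in a hereditary spastic paraplegia. It was the single tested member whose genotypes did not overlap in FPKM. Across all genes tested 7.65% lay wholly higher and 6.87% wholly lower in Zeb2+/-, 14.5% in all. Cyp2u1 lies on chromosome 3 at 131288441 to 131303227. It had 4.46, 2.702, 8.27 and 2.02 FPKM in Zeb2+/- libraries 1 to 4, against 1.73, 1.86, 1.38 and 1.58 FPKM in WT libraries 1 to 4. All 4 Zeb2+/- libraries were higher than all WT libraries, but the Zeb2+/- values themselves were widely spread, with library 3 far above library 4. The means were 4.36 ± 2.801 FPKM in Zeb2+/- and 1.64 ± 0.209 FPKM in WT libraries (SD, n = 4 each), and the log2 fold change was 0.89 (SE 0.31, adjusted p = 0.1703, limma). It was 0.58 without Zeb2+/- library 3 and 1.12 without Zeb2+/- library 4, and over 22 alternatives it ran from 0.35 to 1.25, with adjusted p-values from 0.09098 to 0.7404. Rebuilt reads for Cyp2u1 were 435, 160, 518 and 136 in Zeb2+/- libraries, against 137, 157, 94 and 119 in WT libraries.

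Cyp2e1, which oxidizes ethanol and other small molecules, had 6.48, 3.77, 1.203 and 1.84 FPKM in Zeb2+/- libraries, against 0.8296, 1.01, 1.56 and 3.02 FPKM in WT libraries, and the genotypes overlapped. Zeb2+/- library 1, where Cyp2e1 was highest, also had the highest sum of 7 adipocyte markers, a list added after the values had been seen. Those sums were 193.7, 115, 125 and 60.03 FPKM in Zeb2+/- libraries, against 55.2, 70.02, 106 and 120.004 FPKM in WT libraries. None of these markers was at 0 in all libraries, 0 of the 5 tested passed in limma, and their part in the Cyp2e1 levels was not tested.

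Cyp2w1, known in humans from fetal gut and colorectal tumours, was below the minimum for testing but was the 1 member of the 33 detected below it whose genotypes did not overlap, where 4.49% of all such low genes did not. It had 0.106, 0, 0.1104 and 0.0514 FPKM in Zeb2+/- libraries 1 to 4, against 0.612, 0.655, 0.202 and 0.641 FPKM in WT libraries 1 to 4. Each Zeb2+/- library was lower than each WT library, and WT library 3 was by far the lowest of the WT libraries. These levels rest on 6 reads over all Zeb2+/- libraries and 48 over all WT libraries. In a limma fit with no minimum, the log2 fold change was -0.51 (SE 0.12, adjusted p = 0.122), and 0 of the 33 low members passed, where 1.14% of the 27850 genes in that fit did. The adjusted p was 0.0289 without WT library 3, and over 15 alternatives it ran up to 0.322. At an unadjusted p under 0.05 there were 2 of the 33 low members, Cyp2w1 and Cyp3a16, where 6.67% of all such low genes had one, and Cyp3a16 rests on 1 read in Zeb2+/- and 7 reads in WT libraries.

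**Figure D2:**
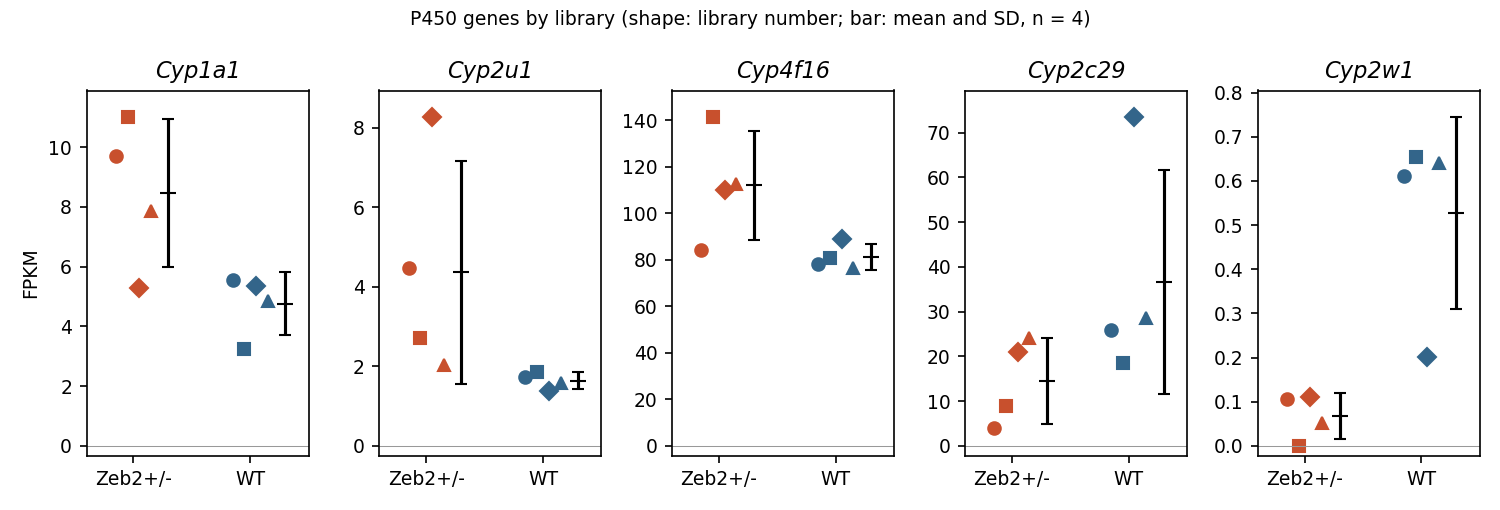
FPKM by library of the 4 tested P450 genes with the smallest p-values and of Cyp2w1, with Zeb2+/- left of WT, shapes for library numbers, and the mean with its SD (n = 4) as a bar beside the points. In FPKM the genotypes do not overlap for Cyp2u1 and Cyp2w1, whereas for Cyp1a1, Cyp4f16 and Cyp2c29 they do. Each vertical axis has its own scale.

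Family 4 enzymes shorten the action of leukotrienes and other eicosanoids and start the breakdown of fatty acids from the far end of the chain. Cyp4f14, which hydroxylates leukotriene B4 and vitamin E side chains in mouse, was the second most abundant member, with 397, 751, 975 and 661 FPKM in Zeb2+/- libraries, against 658, 684, 858 and 749 FPKM in WT libraries. Zeb2+/- library 1 was the lowest and Zeb2+/- library 3 the highest of the 8. Cyp4v3, the counterpart of the human fatty acid hydroxylase mutated in Bietti crystalline dystrophy, had 136, 245, 465 and 227 FPKM in Zeb2+/- libraries, against 191, 184, 294 and 207 FPKM in WT libraries, again with both extremes in Zeb2+/- libraries 1 and 3. Cyp4b1, known for activating lung toxins, had 26.7, 61.2, 86.6 and 60.97 FPKM in Zeb2+/- libraries, against 49.97, 56.6, 101 and 65.4 FPKM in WT libraries. Its genotypes overlapped.

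Cyp4f16, in the Cyp4f cluster of chromosome 17 at 32536558 to 32551798, departed from that order of libraries. It had 84.3, 142, 109.8 and 113 FPKM in Zeb2+/- libraries 1 to 4, against 78.4, 80.99, 88.96 and 76.4 FPKM in WT libraries 1 to 4. In FPKM, Zeb2+/- libraries 2, 3 and 4 lay above every WT library, and Zeb2+/- library 1 lay inside the WT range. Rebuilt reads were 4729, 4823, 3958 and 4361 in Zeb2+/- libraries, against 3566, 3933, 3500 and 3321 in WT libraries. These reads did not overlap, so the overlap in FPKM depends on how the libraries were scaled. The share of all genes that separate in reads was not counted. Limma voom on the rebuilt reads gave a log2 fold change of 0.44 (unadjusted p = 0.00616, adjusted p = 0.119). The means were 112 ± 23.4 FPKM in Zeb2+/- and 81.2 ± 5.505 FPKM in WT libraries (SD, n = 4 each), with a log2 fold change of 0.44 (SE 0.17, adjusted p = 0.212, limma). Without Zeb2+/- library 1 the log2 fold change was 0.57 with an adjusted p of 0.0482 in limma, and Cyp4f16 was then the 1 member called, where 4.11% of all genes tested were (0.811% as higher). With limma's array weights, which give less weight to libraries that stand apart, Cyp4f16 (adjusted p = 0.0172) and Cyp1a1 (adjusted p = 0.0310) passed, where 9.74% of all genes did (4.04% as higher). Cyp4f16 shares 5.95% of its stretches of 100 bases with other genes, nearly all with Cyp4f37, which had no read in any library.

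The neighbouring Cyp4f40 had 36.2, 57.6, 41.7 and 40.6 FPKM in Zeb2+/- libraries, against 37.6, 37.2, 36.5 and 34.4 FPKM in WT libraries. In FPKM, as in Cyp4f16, Zeb2+/- library 2 was the highest and libraries 3 and 4 lay above every WT library, while library 1 lay inside the WT range. Rebuilt reads of Cyp4f40 were 1252, 1209, 925 and 967 in Zeb2+/- libraries, against 1054, 1112, 884 and 921 in WT libraries. In these reads Zeb2+/- library 1 lay above every WT library and library 3 inside the WT range. So this order of libraries depends on how they were scaled. Cyp4f13 averaged 25.1 ± 8.68 FPKM in Zeb2+/- and 22.4 ± 3.44 FPKM in WT libraries (SD, n = 4 each). Cyp4a10, a fatty acid hydroxylase and well known target of the receptor PPARα, had 1.402, 2.18, 2.74 and 3.401 FPKM in Zeb2+/- libraries, against 2.48, 2.92, 4.54 and 3.42 FPKM in WT libraries, with overlap, and 12.2% of its stretches of 100 bases occur in other genes. Family 4 in sum made up 29.3 ± 2.49% of the members' FPKM in Zeb2+/- libraries and 26.1 ± 1.85% in WT libraries (SD, n = 4 each).

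Cyp4f18, known for leukotriene B4 oxidation in mouse white blood cells, had the largest coefficient of variation in Zeb2+/- among the tested members of the family, with 7.74, 0.763, 0.587 and 4.16 FPKM in Zeb2+/- libraries, against 4.08, 3.52, 1.49 and 3.29 FPKM in WT libraries. Zeb2+/- libraries 1 and 4 were the highest of the 8, and Zeb2+/- libraries 2 and 3 the lowest. The sum of 8 B cell markers, a list added after the values had been seen, was 161, 2.13, 1.11 and 106 FPKM in Zeb2+/- libraries, against 32.9, 48.9, 4.502 and 4.11 FPKM in WT libraries. None of the 8 B cell markers was at 0 in all libraries and 0 passed in limma. The 6 neutrophil markers summed to at most 0.383 FPKM in Zeb2+/- and 0.481 FPKM in WT libraries. The planned list of 8 macrophage and dendritic cell markers summed to 49.7, 21.9, 10.9 and 36.3 FPKM in Zeb2+/- libraries. In WT libraries that list summed to 121, 113, 112 and 126 FPKM. Cyp4f18 also overlaps Zfp961 on the opposite strand by 5311 bases, a gene with a mean of 5.62 FPKM, and the labels do not state whether the counting used strand. The part of these cells or of Zfp961 in the Cyp4f18 levels was not tested.

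Family 1 is the AHR's own battery, and Cyp1a1 is its standard readout. Cyp1a1, on chromosome 9 at 57687928 to 57703824, had 9.703, 11.02, 5.29 and 7.86 FPKM in Zeb2+/- libraries 1 to 4, against 5.57, 3.23, 5.37 and 4.86 FPKM in WT libraries 1 to 4. Zeb2+/- libraries 1, 2 and 4 lay above every WT library, and Zeb2+/- library 3 lay inside the WT range. The means were 8.47 ± 2.49 FPKM in Zeb2+/- and 4.76 ± 1.06 FPKM in WT libraries (SD, n = 4 each), and the log2 fold change was 0.70 (SE 0.22, adjusted p = 0.141, limma), the smallest p among the 27. Cyp1a2, its neighbour and the main caffeine oxidase of liver, averaged 0.3996 ± 0.232 FPKM in Zeb2+/- and 0.256 ± 0.0269 FPKM in WT libraries (SD, n = 4 each). Cyp1b1, which hydroxylates oestrogens and is found largely outside epithelia, had 2.55, 0.1899, 0.0163 and 0.821 FPKM in Zeb2+/- libraries, against 0.724, 0.666, 0.299 and 0.433 FPKM in WT libraries, and the Zeb2+/- libraries held both the highest and the lowest value.

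Of 9 other genes of the AHR axis, 7 were tested and 0 passed in limma. Ahr, the receptor, averaged 4.54 ± 0.797 FPKM in Zeb2+/- and 6.18 ± 0.441 FPKM in WT libraries (SD, n = 4 each), with all Zeb2+/- libraries below all WT libraries (log2 fold change -0.39, adjusted p = 0.151, limma). Arnt, its DNA-binding partner, averaged 5.303 ± 1.06 FPKM in Zeb2+/- and 7.04 ± 0.412 FPKM in WT libraries (SD, n = 4 each), likewise without overlap (log2 fold change -0.37, adjusted p = 0.204, limma). Among all genes tested 6.87% lay wholly lower in Zeb2+/-, and Ahr and Arnt were named for the smallest p of their list. Ahrr, the repressor of the receptor and itself one of its targets, was too low for testing and was named after its values were seen. It had 0.0399, 0.0188, 0.0266 and 0.0578 FPKM in Zeb2+/- libraries, against 0.337, 0.2501, 0.276 and 0.228 FPKM in WT libraries, from 19 reads in Zeb2+/- and 151 reads in WT. So the 4 Zeb2+/- values of Ahrr lay below all WT values, with an adjusted p of 0.0692 in the limma fit with no minimum. Among all genes detected below 1 FPKM, 4.49% did not overlap in either direction.

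Across the 27 tested members, 11 had a log2 fold change above 0 and 16 below, with a median of -0.09, against 0.00 over all genes tested. Adjusted p-values ran from 0.141 to 0.986 in limma. The SE of the log2 fold change ran from 0.15 to 0.58, and the median 95% interval, not adjusted, reached 0.69 to either side of the estimate. Larger estimates also failed the adjusted threshold, such as -1.36 for Cyp2c29 and 0.89 for Cyp2u1. So differences beyond 0.69 could be missed as well as smaller ones. The plot of fold changes shows the same fit without Zeb2+/- library 1. The log2 fold change of Cyp3a13 was 0.15 without that library and -0.20 with all 8, and that of Cyp4f14 was 0.10 without it and -0.15 with all 8. Likewise it was 0.07 and -0.20 for Cyp2b10, 0.07 and -0.23 for Cyp2d26, and 0.02 and -0.24 for Cyp3a25. So the 5 estimates changed sign with 1 library, and none of them passed the test either way.

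**Figure D3:**
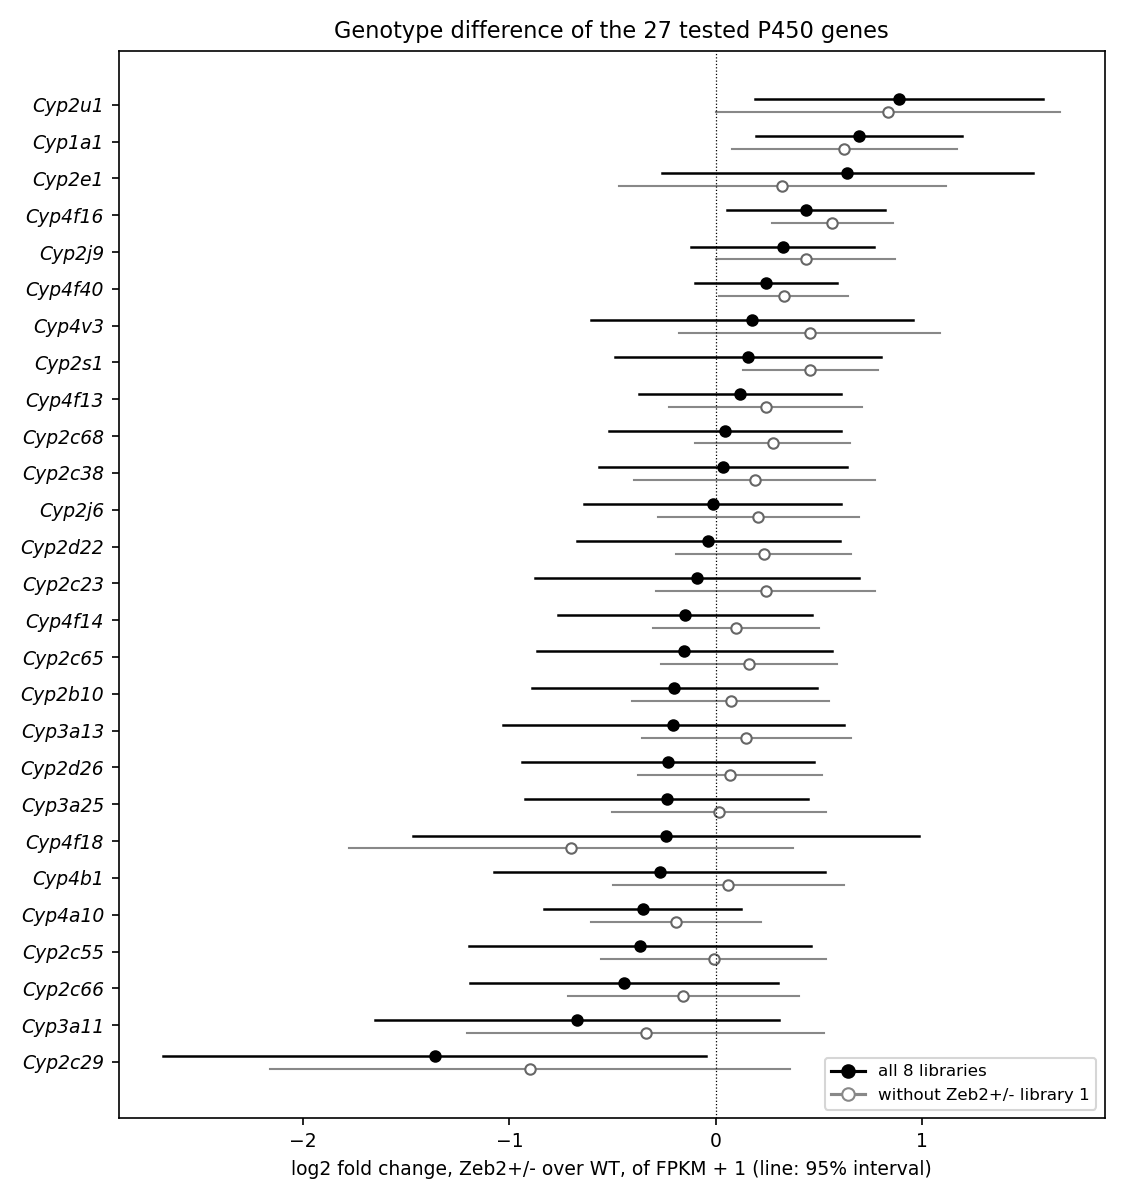
Log2 fold change of FPKM + 1, Zeb2+/- over WT, of the 27 tested P450 genes with 95% intervals from limma, from all 8 libraries (filled) and without Zeb2+/- library 1 (open). Most intervals include 0, and without that library most estimates shift to the right, while Cyp2c29 remains the most negative and Cyp2u1 the most positive.

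The abundant members moved together from library to library. The 75 members summed to 2192, 4213, 6255 and 4184 FPKM in Zeb2+/- libraries 1 to 4, against 4006, 3759, 5876 and 4520.5 FPKM in WT libraries 1 to 4. The deposited FPKM carry a scale factor per library of unstated origin, and it widened this spread. As a percentage of the reads in genes, which leaves that factor out and was added after the data were seen, the members took 0.687, 0.947, 1.278 and 1.05 in Zeb2+/- libraries, against 1.05, 0.9599, 1.34 and 1.15 in WT libraries. The highest library was 1.94 times the lowest in reads and 2.85 times in FPKM, and the highest was WT library 3 in reads but Zeb2+/- library 3 in FPKM. Zeb2+/- library 1 was the lowest of the 8 for 20 of the 27 tested members, 74.1%, against 34.4% of all genes tested. Zeb2+/- library 3 or WT library 3 was the highest for 21 of the 27, against 41.6% of all genes tested. In reads the first count was 18 of the 27, against 16.1% of all genes tested, and the second was 20, against 13.01%. Among the 12 most abundant members both counts were 11, in FPKM and in reads, and Cyp4f16 was the exception to each, while its Zeb2+/- library 2 was the highest. As a percentage of the WT mean, the median of these 12 was 48.8, 94.8, 135 and 95.7 in Zeb2+/- libraries, against 90.0, 83.9, 128 and 98.3 in WT libraries. The coefficient of variation was larger in Zeb2+/- for 26 of the 27 members, and for 83.2% of all genes tested, with medians for the members of 40.5% in Zeb2+/- and 20.1% in WT.

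Markers of the absorptive villus cell moved in the same way across libraries. The sum of 16 such markers, led by Apoa1 and Fabp2, was 16373, 35651, 53151 and 30639 FPKM in Zeb2+/- libraries, against 27660.4, 28445, 40954 and 34062 FPKM in WT libraries. As a percentage of the reads in genes it was 3.62, 6.1956, 7.795 and 5.87 in Zeb2+/- libraries, against 5.86, 5.85, 7.34 and 6.22 in WT libraries. The sum of 8 general epithelial markers, led by Krt8 and Epcam, ran from 2805 to 4686 FPKM in Zeb2+/- and from 3299.8 to 4297 FPKM in WT libraries. None of these 24 markers was at 0 in all libraries, and 0 of them passed in limma. Dividing each library by the geometric mean of its villus markers, a scaling chosen after the data were seen, made the SE smaller for 16 of the 27 members, against 7.28% of all genes tested, and left 0 members called, where 0.796% of all genes were (0.0328% as higher), and 2 at an unadjusted p under 0.05 (Cyp2c29 and Cyp2u1), where 5.13% of all genes had one. Other scalings also made SEs smaller, so a smaller SE is not particular to villus markers. For Cyp3a13 the SE was 0.364 in the main fit, 0.182 scaled to villus markers, 0.260 to epithelial markers and 0.244 to TPM. For Cyp4f14 it was 0.272, 0.207, 0.172 and 0.153 in the same order. The part of villus cells in the spread between libraries was not tested. In a bulk sample the number of cells and the RNA per cell cannot be told apart.

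**Figure D4:**
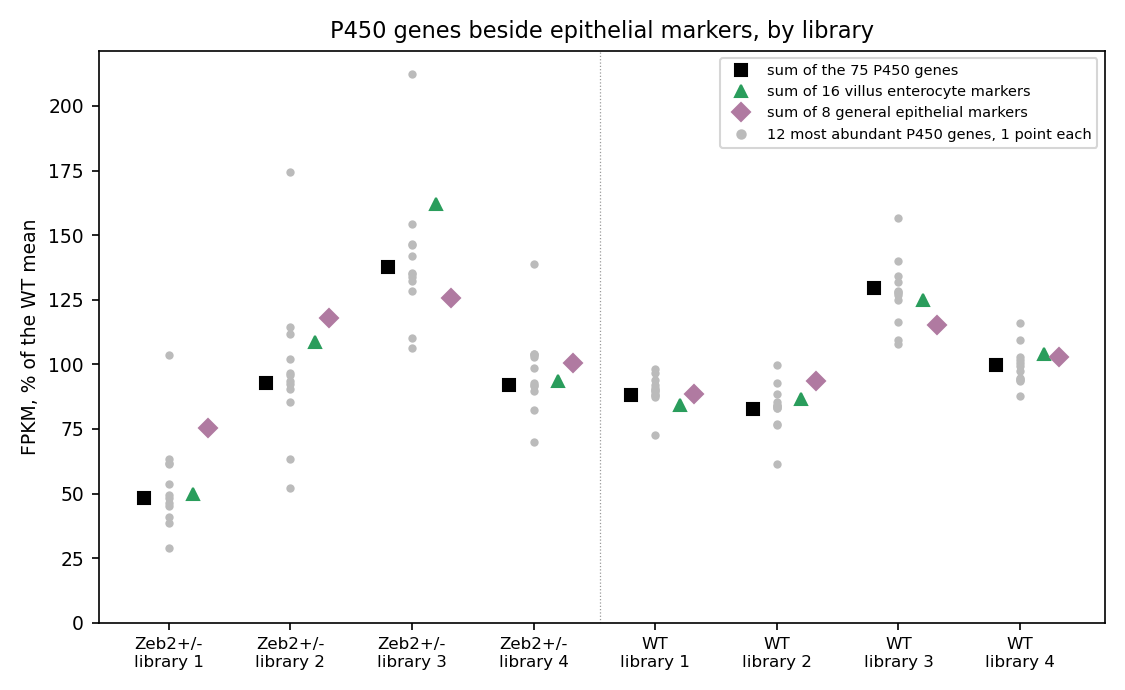
FPKM as a percentage of the WT mean in each library for the 12 most abundant P450 genes (grey points), the sum of all 75 P450 genes (black squares), the sum of 16 villus enterocyte markers (green triangles) and the sum of 8 general epithelial markers (purple diamonds). The P450 sum and the villus marker sum are both lowest in Zeb2+/- library 1 and highest in Zeb2+/- library 3 on this FPKM scale, while as a percentage of reads the P450 sum is highest in WT library 3.

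Markers of other cells and organs were also measured in the same libraries. Among tested markers, 10 of 12 of pancreatic acinar cells, 5 of 8 of blood endothelium, 5 of 9 of fibroblasts and 6 of 8 of macrophages and dendritic cells fell in Zeb2+/-, none of which was at 0 in all libraries. Among all genes tested 2.77% fell. Of crypt cells 0 of 7 passed, of smooth muscle 0 of 7, of proximal position 0 of 6 and of distal position 0 of 2. At an unadjusted p under 0.05 in limma were 1 crypt, 3 proximal and 0 distal markers, where 18.9% of all genes tested had one. The proximal markers had a median log2 fold change of -0.61, with sums of 59.6 to 115 FPKM in Zeb2+/- and 96.3 to 130 FPKM in WT libraries. The acinar sums overlapped, at 578 to 1985 FPKM in Zeb2+/- and 1906 to 4096 FPKM in WT libraries, and 0 of the 12 acinar markers passed in voom, where 5 of the 8 endothelial, 3 of the 9 fibroblast and 5 of the 8 macrophage and dendritic cell markers did. The sums include Amy2b and Zg16, which did not pass in limma, so the overlap of the sums does not show that the 10 that fell overlapped. The median log2 fold change of the 12 listed acinar markers was -5.71. Smooth muscle sums were 279.3 to 683 FPKM in Zeb2+/- and 219 to 279.4 FPKM in WT libraries, with a median log2 fold change of 0.68 and 5 of 7 at an unadjusted p under 0.05. Sums for fibroblast markers ran from 29.2 to 71.7 FPKM in Zeb2+/- and from 94.5 to 139.7 FPKM in WT libraries, and sums for macrophage markers from 10.9 to 49.7 FPKM in Zeb2+/- and from 112 to 126 FPKM in WT libraries. The part of these cells in the levels of the P450 genes was not tested.

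Liver is a main site of action of many P450 genes, and its transcripts were scarce in these libraries. The sum of 11 hepatocyte markers was 15.4 FPKM in Zeb2+/- library 4, and 2.45 to 4.04 FPKM in the other 7 libraries. Alb, the liver's albumin gene, had 166 reads in Zeb2+/- library 4 and at most 15 in any other library. That library also had a read for 59 members, where the others had 43 to 53, and it alone had reads for Cyp2d40, Cyp4a14, Cyp2c54 and Cyp2c37, 9 reads in all. These genes were named after their values had been seen, and the part of liver RNA in them was not tested. The members at 0 were 12 of family 2, 1 of family 3 and 2 of family 4. For these 15, 3 reads over all libraries would correspond to 0.00635 to 0.0175 FPKM depending on gene length, which is the limit that a count of 0 allows, for counting error only. Reads of some of the 15 could be lost to near copies, since at least 10% of the stretches of 50 bases occur in other genes for 9 of them, and of those of 100 bases for 3.

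The gene clusters showed that expressed and silent members lie side by side. In the Cyp2c cluster of 14 genes on chromosome 19, 6 were tested and 3 were at 0, and the means over 8 libraries ran from 0 to 265 FPKM (Cyp2c65). Of 13 genes over 1356 kilobases of chromosome 7, Cyp2s1 and Cyp2b10 were tested and 6 were at 0. In the Cyp3a cluster of 6 genes on chromosome 5, Cyp3a11 and Cyp3a25 averaged 379.8 and 319 FPKM, and no other gene reached 1 FPKM. In the Cyp4f cluster of 8 genes on chromosome 17, 4 were tested, with Cyp4f14 at 717 FPKM and Cyp4f37 at 0. In the Cyp2d cluster of chromosome 15, the 2 tested genes stand at the 2 ends of the 8 in genome order.

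**Figure D5:**
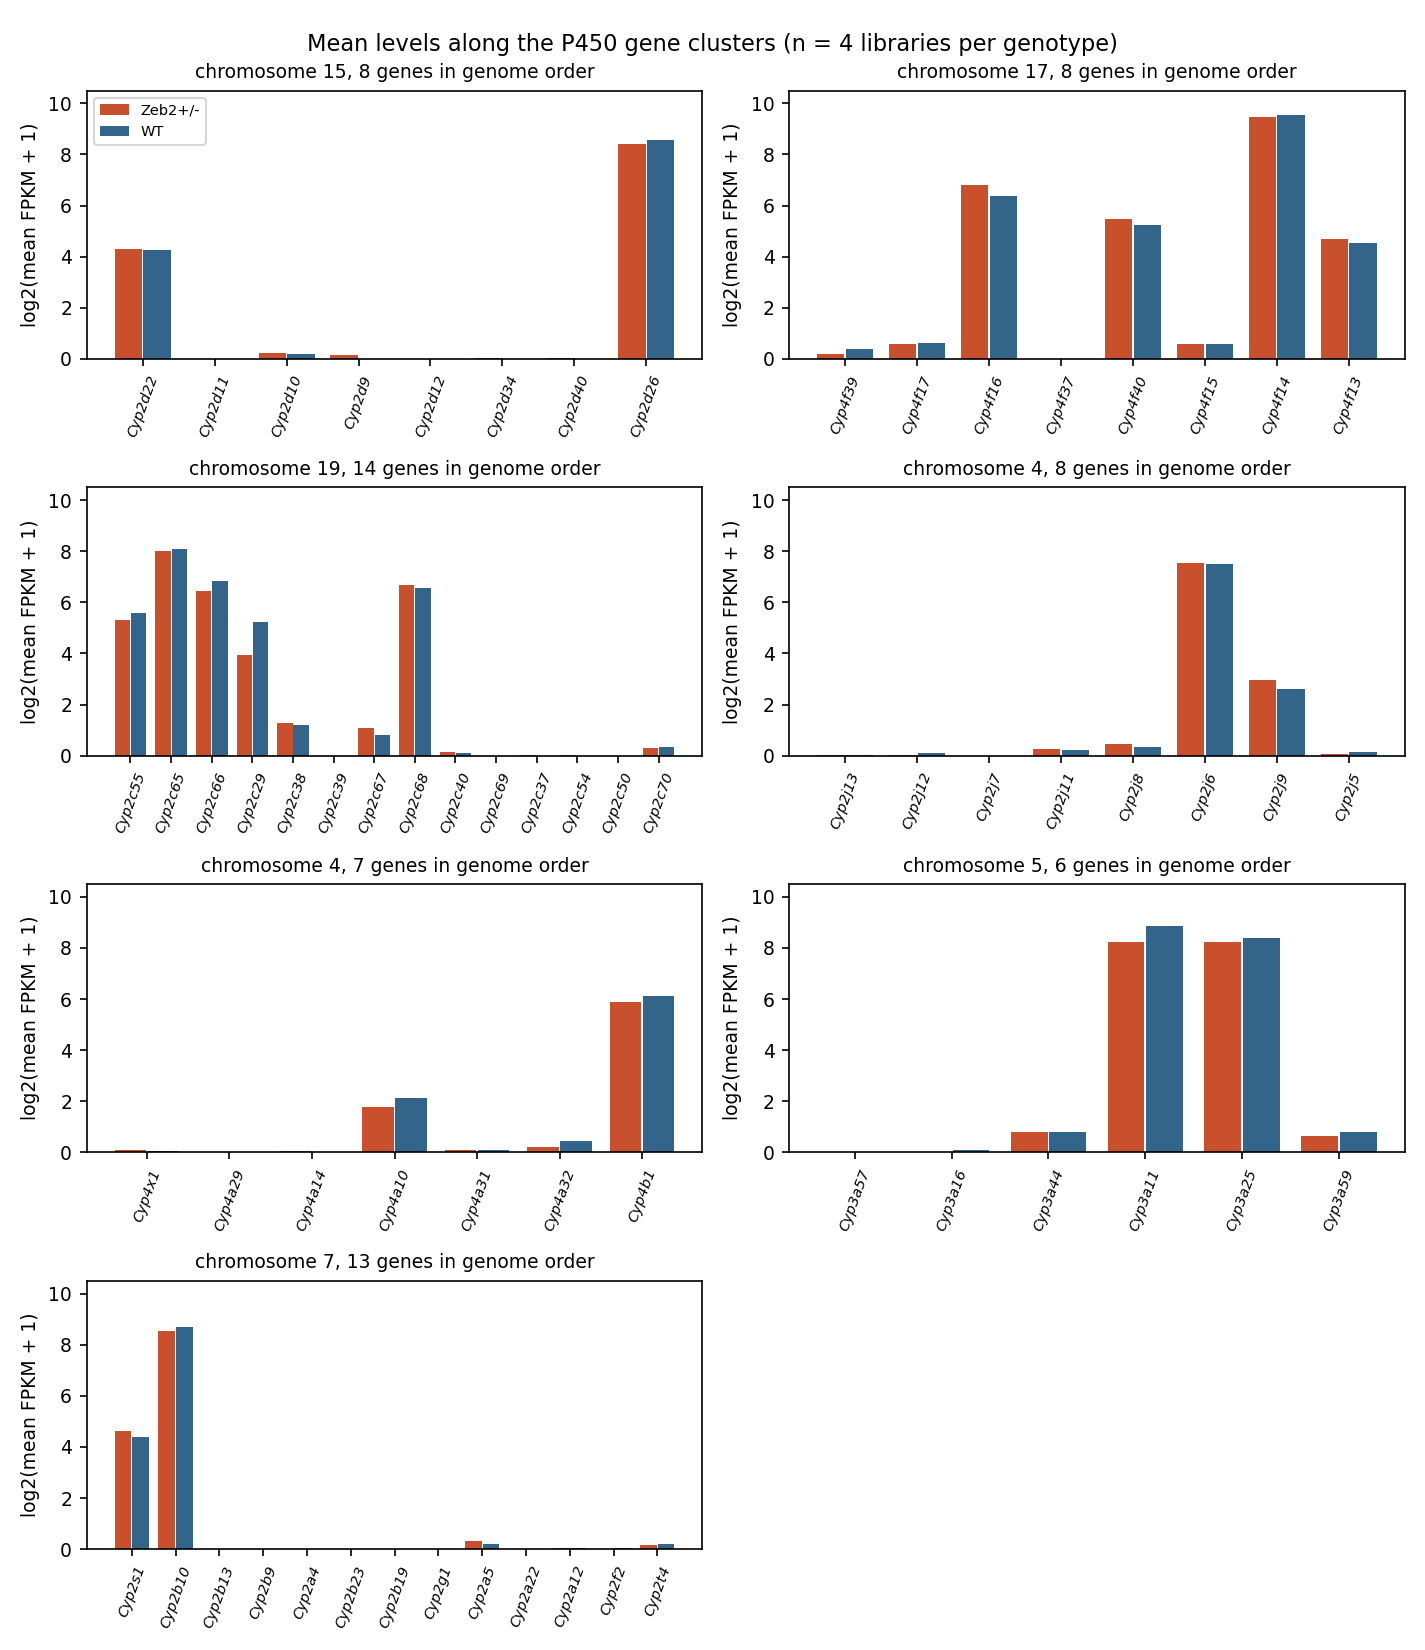
Mean level of each P450 gene, as log2 of mean FPKM + 1, in Zeb2+/- (orange, left) and WT (blue, right) along the 7 clusters of at least 6 genes, in genome order (n = 4 libraries per genotype). In each cluster 2 to 6 genes reached a mean of 1 FPKM, and the others stand near 0 in both genotypes.

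Genes that supply or regulate the P450 enzymes were counted from lists written from general knowledge. Of 15 genes for electron supply and haem synthesis, 0 passed in limma. Por, the oxidoreductase that feeds electrons to all microsomal P450 enzymes, had 36.9, 117, 131 and 106 FPKM in Zeb2+/- libraries, against 133, 139, 242 and 152 FPKM in WT libraries. All 4 Zeb2+/- libraries lay below the WT libraries, with a log2 fold change of -0.87 (SE 0.39, adjusted p = 0.276, limma). Ppox, an enzyme of haem synthesis, averaged 6.16 ± 1.22 FPKM in Zeb2+/- and 4.12 ± 0.145 FPKM in WT libraries (SD, n = 4 each), with the Zeb2+/- libraries all above WT (log2 fold change 0.47, adjusted p = 0.0908, limma). Among all genes tested 6.87% lay wholly lower in Zeb2+/-, as Por did, and 7.65% wholly higher, as Ppox did.

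Of 18 nuclear receptors and other factors known to act on P450 promoters, 0 passed in limma and 1 passed in voom, Ppara (adjusted p = 0.0468, limma voom). In voom 1.66% of all genes passed. Ppara, the fatty acid sensor upstream of Cyp4a genes, had 3.49, 10.04, 10.4 and 9.33 FPKM in Zeb2+/- libraries, against 14.7, 16.02, 20.03 and 13.7 FPKM in WT libraries. The genotypes did not overlap, and the log2 fold change was -0.96 (SE 0.29, adjusted p = 0.129, limma). Cebpb averaged 39.6 ± 6.4002 FPKM in Zeb2+/- and 25.6 ± 2.16 FPKM in WT libraries (SD, n = 4 each), with no Zeb2+/- library as low as a WT one (log2 fold change 0.60, adjusted p = 0.0608, limma). Such separation held for 6.87% of all genes tested as lower, as in Ppara, and for 7.65% as higher, as in Cebpb.

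Among enzymes outside the 4 families, 0 of 5 tested P450 genes passed, with Cyp51 of sterol synthesis at 13.8 ± 3.98 FPKM in Zeb2+/- and 10.2 ± 1.35 FPKM in WT libraries (SD, n = 4 each) and Cyp20a1 at 2.39 ± 0.95004 FPKM in Zeb2+/- and 2.79 ± 0.728 FPKM in WT libraries (SD, n = 4 each). Of 32 tested phase I enzymes other than P450, 1 fell in Zeb2+/-, the flavin monooxygenase Fmo2, which averaged 1.52 ± 0.302 FPKM in Zeb2+/- and 4.46 ± 1.77 FPKM in WT libraries (SD, n = 4 each) (log2 fold change -1.07, SE 0.22, adjusted p = 0.0335, limma). This 1 of 32 is near the 2.77% of all genes tested that fell. Of 10 tested enzymes of arachidonate and eicosanoid metabolism, whose substrates Cyp2c, Cyp2j and Cyp4f enzymes share, 3 fell in Zeb2+/- and 0 rose. Among all genes tested 2.77% fell and 0.468% rose. Ptgs1, the constitutive cyclooxygenase, averaged 4.02 ± 0.342 FPKM in Zeb2+/- and 6.596 ± 0.531 FPKM in WT libraries (SD, n = 4 each) (adjusted p = 0.0125, limma). Pla2g4a, which frees arachidonate from membranes, averaged 1.18 ± 0.289 FPKM in Zeb2+/- and 2.63 ± 0.238 FPKM in WT libraries (SD, n = 4 each) (adjusted p = 0.0158, limma). Ptges, a prostaglandin E synthase, averaged 0.601 ± 0.289 FPKM in Zeb2+/- and 1.803 ± 0.285 FPKM in WT libraries (SD, n = 4 each) (adjusted p = 0.0335, limma). In voom, 0 members of either list passed. Markers of acinar cells, blood endothelium, fibroblasts, and macrophages and dendritic cells also fell in Zeb2+/-, as given above. The part of any cell type in the fall of these 4 genes was not tested.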

How the data were processed

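The authors deposited FPKM for 54532 genes with symbol, position, length and biotype. Per the labels' protocols the RNA was poly-T selected and the libraries were directional, made with dUTP. HISAT2 2.0.5, featureCounts 1.5.0-p3 and GRCm38 (mm10) are named in the submitters' processing notes, which state no strand or multi-mapping setting. FPKM times gene length gave whole reads for 100% of the values (tolerance 0.01 read), with library totals implied by the FPKM at 0.733 to 1.16 times the rebuilt sums, so an additional scale factor lies in the deposited values.

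Genotypes were compared on log2(FPKM + 1) with limma 3.58.1 in R 4.3.3 (lmFit, eBayes with trend and robust, two-sided, Benjamini-Hochberg adjusted p under 0.05) on 12190 genes with a mean of at least 1 FPKM. Low members came from a fit of all 27850 genes above 0. This scale understates changes near 0. Stretches of 50 and 100 bases shared between genes were counted in GENCODE M21 transcripts. Alternatives were other pseudocounts, minimums, scalings and variance models, the replicate block, voom, and leaving out libraries. Scalings to 2 marker lists, along with 3 further marker lists, were added after the data were seen.

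The members and lists were chosen with earlier results of these data known. Named members are those past the threshold, the 12 most abundant, the top member of each expressed subfamily, the 4 smallest p-values and low members without overlap. Named pathway genes are those past the threshold, or otherwise the 2 with the smallest p.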

Additional observations from a re-analysis of the deposited data

Results flagged for a closer look

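Among 28 members with 4 libraries in each genotype, 56 groups were examined for a library far from the other 3, and 4 had one, while chance flags about 1 in 20 groups. All 4 were WT library 3. Cyp2d26 had 473 FPKM there, above the other WT libraries at 329 to 349.8 FPKM. Cyp2c55 had 64.96 FPKM there, Cyp2c23 had 3.59 FPKM and Cyp2w1 had 0.202 FPKM, the first pair above and Cyp2w1 below the other WT libraries. The villus marker sum was also highest among the WT libraries in library 3, at 40954 FPKM, and its part in these values was not tested.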

How the results depend on the processing

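No tested member passed the adjusted threshold in limma in the alternatives run, except for 2 with array weights (Cyp4f16, Cyp1a1) and 1 without Zeb2+/- library 1 (Cyp4f16), so that leaving out libraries gave 0 to 1. Of the low members, Cyp2w1 passed in 1 of 15 alternatives, without WT library 3 (adjusted p = 0.0289). Genes changed among all tested numbered 395 (57 higher, 338 lower). They numbered 157 with a minimum of 5 FPKM (fewer genes tested) and 1187 with array weights (493 higher, 694 lower). With voom there were 202 (15 higher, 187 lower), and scaled to TPM 329 (15 higher, 314 lower). Scaled to villus markers there were 97 (4 higher, 93 lower), and scaled to epithelial markers 494 (15 higher, 479 lower). So the share called higher depends on the scaling and model. Genes changed numbered 206 to 496 when 1 library was left out, the fewest when WT library 1 (206), 4 (212) or 2 (249) was dropped. Listed genes changed numbered 30, against 17 with a minimum of 5 FPKM, 14 with voom, 12 scaled to villus markers and 22 to 36 with 1 library left out. The cause was not tested except where given. The difference in mean Zeb2 ran from -0.70 to -0.56 FPKM with 1 library left out, where the smallest exact p of 3 against 4 is 0.0571.

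Of 449 comparisons of 20 named members with an alternative, 24 reversed a direction, and 9 members had none. With 1 library left out, log2 fold changes ran from -0.46 to 0.15 for Cyp3a13, -0.33 to 0.10 for Cyp4f14, -0.40 to 0.074 for Cyp2b10, -0.45 to 0.068 for Cyp2d26, -0.49 to 0.017 for Cyp3a25, -0.35 to 0.16 for Cyp2c65, -0.13 to 0.46 for Cyp4v3, -0.23 to 0.21 for Cyp2j6, -0.12 to 0.28 for Cyp2c68, -0.013 to 0.46 for Cyp2s1 and -0.49 to 0.062 for Cyp4b1. Scaled to villus markers, which moved the median of all genes by 0.18, they were 0.047 for Cyp4f14, 0.043 for Cyp2c65 and 0.18 for Cyp2j6. Array weights gave 0.10 for Cyp2c65 and 0.11 for Cyp2j6, and leaving out Zeb2+/- libraries 1 and 3 gave 0.017 for Cyp2c65. Cyp2c68 was at -0.061 scaled to TPM, -0.011 with quantile normalization and -0.10 scaled to epithelial markers, where all genes moved by -0.12.

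Deviations of same-numbered libraries from their genotype means had correlations of 0.24, -0.16, 0.33 and -0.19. Zeb2+/- libraries 1 and 3 correlated best with the WT library of their own number, and libraries 2 and 4 with another. These 4 values cannot decide whether the numbers pair samples. With the replicate block 299 genes and 0 members were called. Members near 0 are limited by depth, and 4 libraries a genotype left intervals wide.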
